A study of Mus musculus with 15 samples.

Results

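Granzymes, perforin and NKG7 are the working parts of the cytotoxic granule, and 9 of their genes were followed through mouse MC38 tumours: Gzma, Gzmb, Gzmc, Gzmd, Gzme, Gzmf, Gzmk, Prf1 and Nkg7. They were taken by symbol from a table of 21851 genes, and all 9 were among the 11311 genes tested, those that reached 1 FPKM in 5 or more libraries. Gzmk met that filter mainly through its treated tumours, since 4 of its 5 vehicle values lay below 1 FPKM. FPKM divides a gene's fragments by its length and by the mapped fragments of the library, so its values can be set side by side between genes.

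MC38 is a mouse colon adenocarcinoma line grown as a tumour in wild type mice, and whole tumour blocks were sequenced as bulk polyadenylated RNA. The 3 groups received intravenous vehicle, an intravenous antibody that blocks PD-1, an inhibitory receptor of T cells, or the same antibody together with BG136, a β-1,3/1,6-glucan that the labels call soluble and highly pure. Each group had 5 libraries. No group received BG136 alone, so what BG136 adds can be read here only on top of the antibody. Checked against the label, the epithelial markers of a carcinoma were low, with Epcam at 0.384 ± 0.398 FPKM in vehicle tumours (SD, n = 5), while T cell, CD8 and macrophage markers were present in every group. The FPKM values of a library summed to 377509 to 424899. Sequencing depth is unknown, because no read counts were used here.

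Cytotoxic T cells and natural killer cells store perforin and granzymes in secretory lysosomes and release them at the contact with a target cell. Perforin (Prf1) makes pores in the target membrane, and granzymes are the serine proteases that enter through them. NKG7 (Nkg7) is a membrane protein of the same granules that is needed for their efficient release. Granzyme B (Gzmb) cleaves after aspartate and starts the caspase cascade, granzymes A and K (Gzma, Gzmk) cleave after basic residues, and Gzmc to Gzmg are a rodent expansion of the gene cluster that holds Gzmb.

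In tumours given BG136 plus anti-PD-1, Nkg7, Prf1 and Gzmk rose against vehicle, and no member fell past the threshold. The abundance order changed with this. In vehicle tumours Gzmc had the highest mean, at 74.2 ± 24.2 FPKM (SD, n = 5), followed by Gzmb at 29.9 FPKM. Nkg7 was the fifth there, at 19.0 FPKM, behind Gzmd at 27.4 and Gzmf at 24.0 FPKM. In the combination group Nkg7 came first, at 71.0 ± 35.1 FPKM, followed by Gzmb at 63.2 FPKM, and Gzmc was the fifth at 36.9 ± 17.5 FPKM. Under anti-PD-1 alone Gzmb, at 36.2 FPKM, stood just above Nkg7, at 34.4 FPKM. Neighbours in these orders overlapped between libraries, except that every vehicle value of Gzmk lay below every vehicle value of Prf1, the next gene up.

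**Figure D1:**
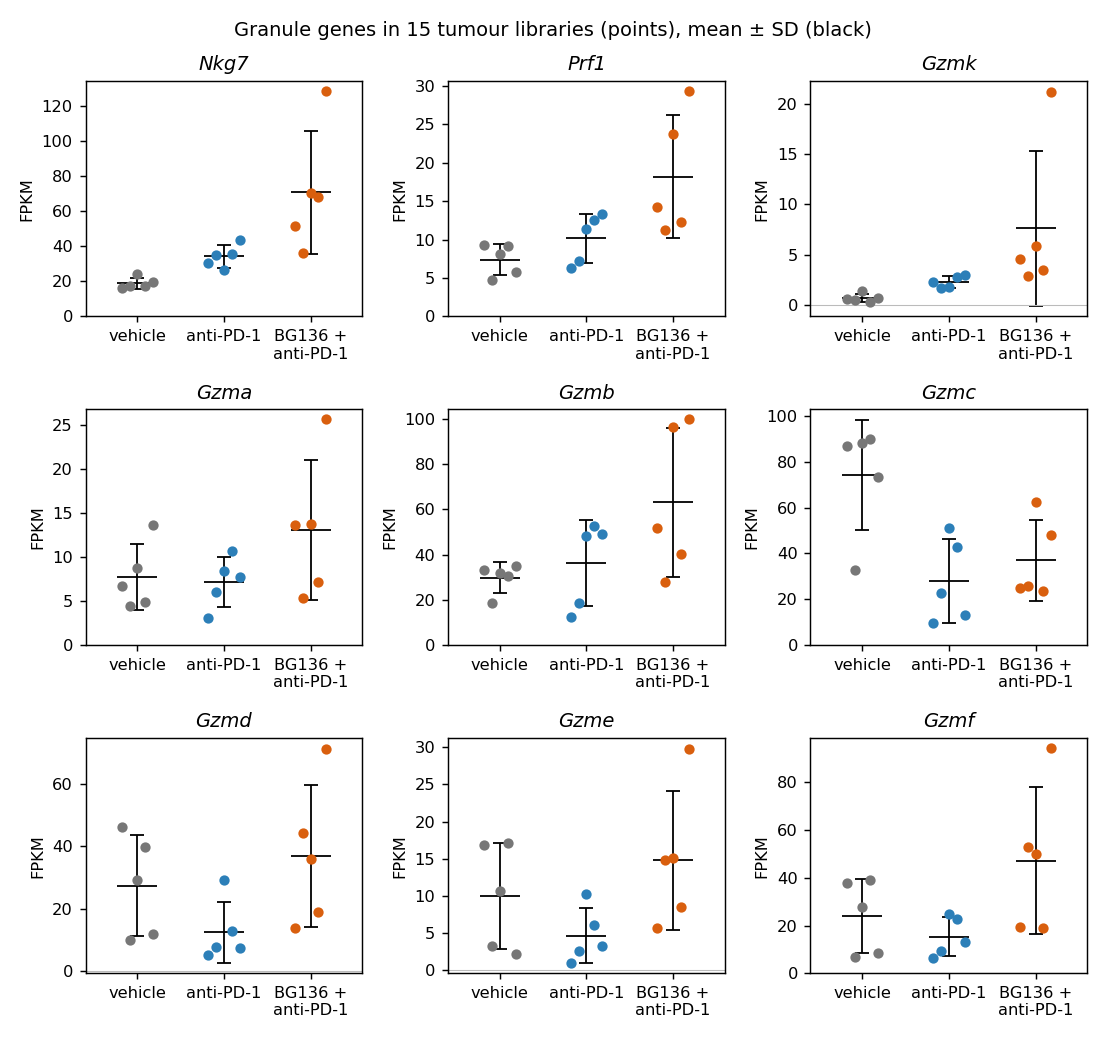
FPKM (vertical axis, linear) of the 9 genes in each library, by group, with replicates 1 to 5 from left to right within a group and the mean ± SD in black. Every combination value of Nkg7, Prf1 and Gzmk lies above every vehicle value, while Gzmc is highest in 4 of the 5 vehicle tumours.

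Nkg7 was the member with the smallest p in each comparison with the combination group. Its vehicle values were 16.2, 17.4, 24.3, 17.4 and 19.7 FPKM in replicates 1 to 5. Under anti-PD-1 they were 30.5, 35.3, 26.5, 35.9 and 43.7 FPKM. With BG136 plus anti-PD-1 they were 51.5, 36.3, 70.3, 68.1 and 129 FPKM. Both treated groups lay wholly above vehicle, and the treated groups overlapped only through combination replicate 2. On the log2(FPKM + 1) scale the combination exceeded vehicle by 1.74 ± 0.25 (SE, limma adjusted p = 2.22e-04). Anti-PD-1 exceeded vehicle by 0.82 ± 0.25 (limma adjusted p = 0.0655), and the combination exceeded anti-PD-1 by 0.92 ± 0.25 (limma adjusted p = 0.0822), so neither of these steps passed the threshold of 0.05. The former passed without combination replicate 2 or 5, and the latter without combination replicate 2.

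Prf1, which encodes the pore protein, had vehicle values of 9.24, 4.72, 8.17, 9.11 and 5.78 FPKM. Under anti-PD-1 it measured 6.34, 7.22, 11.4, 12.6 and 13.3 FPKM. In the combination group it measured 14.2, 11.3, 23.7, 12.3 and 29.4 FPKM. Anti-PD-1 replicates 1 and 2 sat within the vehicle range, whereas all 5 combination values exceeded it. The combination was 1.13 ± 0.27 above vehicle on the log2(FPKM + 1) scale (limma adjusted p = 0.00476). Anti-PD-1 differed from vehicle by 0.40 ± 0.27 (limma adjusted p = 0.403) and the combination from anti-PD-1 by 0.74 ± 0.27 (limma adjusted p = 0.117), which passed without combination replicate 2.

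Gzmk encodes a tryptase-like granzyme carried mainly by a subset of CD8 T cells, and it was the least abundant member in every group. Vehicle values were 0.554, 0.523, 1.34, 0.325 and 0.666 FPKM. Anti-PD-1 values were 2.33, 1.68, 1.80, 2.75 and 3.02 FPKM. Combination values were 4.54, 2.90, 5.89, 3.49 and 21.2 FPKM. The treated groups did not overlap with vehicle, and combination replicate 5 stood far above the other combination tumours. The combination exceeded vehicle by 2.05 ± 0.35 on the log2(FPKM + 1) scale (limma adjusted p = 6.91e-04). This difference was 1.62 without combination replicate 5 (limma adjusted p = 9.91e-05), and 3.01 with a pseudocount of 0.1 FPKM (limma adjusted p = 2.67e-04), which compresses low values less. Anti-PD-1 exceeded vehicle by 0.99 ± 0.35 (limma adjusted p = 0.115), which passed without combination replicate 5. The combination exceeded anti-PD-1 by 1.06 ± 0.35 (limma adjusted p = 0.0997), which passed without combination replicate 2.

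The tryptase Gzma ranged from 4.44 to 13.6 FPKM in vehicle, 3.07 to 10.7 FPKM under anti-PD-1 and 5.27 to 25.6 FPKM in the combination. The 3 ranges overlapped, and the difference of the combination from vehicle was 0.61 ± 0.38 on the log2(FPKM + 1) scale (limma adjusted p = 0.212). For Gzmb, the caspase-activating granzyme, vehicle tumours measured 33.2, 18.4, 32.05, 30.5 and 35.2 FPKM. Anti-PD-1 tumours measured 12.2, 18.7, 48.2, 52.8 and 48.9 FPKM. Combination tumours measured 51.9, 27.7, 96.5, 40.2 and 99.9 FPKM. Anti-PD-1 replicate 1 fell below the vehicle range, replicate 2 just inside it and replicates 3, 4 and 5 above it. Combination replicate 2 also lay inside the vehicle range. The difference of the combination from vehicle was 0.92 ± 0.42 (limma adjusted p = 0.0894), and that of anti-PD-1 from vehicle was 0.09 ± 0.42 (limma adjusted p = 0.921). Without combination replicate 2 the former was 1.17 and passed (limma adjusted p = 0.0309).

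Gzmc was the only member whose mean was lower in both treated groups than in vehicle by more than 1 log2 unit. Vehicle values were 87.1, 32.6, 88.1, 90.1 and 73.3 FPKM. Anti-PD-1 values were 9.45, 22.6, 51.3, 42.8 and 13.1 FPKM. Combination values were 24.7, 25.6, 62.6, 23.8 and 48.0 FPKM. Every treated value lay below 4 of the 5 vehicle values, and vehicle replicate 2 fell among the treated tumours. The difference was -1.56 ± 0.44 for anti-PD-1 against vehicle (limma adjusted p = 0.0502) and -1.02 ± 0.44 for the combination against vehicle (limma adjusted p = 0.0759), so neither passed. Without vehicle replicate 2 the differences were -1.83 (limma adjusted p = 0.0327) and -1.28 (limma adjusted p = 0.0329), and both passed. The anti-PD-1 difference also passed without anti-PD-1 replicate 3 or 4 or combination replicate 2, 3 or 5, and the combination difference without combination replicate 3.

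Gzmd, Gzme and Gzmf, which lie in the same cluster as Gzmc, varied most between the vehicle tumours. Gzmd measured 46.2, 9.93, 29.1, 39.7 and 12.1 FPKM in vehicle. It measured 5.16, 7.67, 29.2, 12.99 and 7.48 FPKM under anti-PD-1. It measured 14.0, 44.4, 36.1, 19.1 and 71.3 FPKM in the combination. The groups overlapped throughout, with a high anti-PD-1 value in replicate 3 and low vehicle values in replicates 2 and 5. Gzme ran from 2.24 to 17.1 FPKM in vehicle, a 7.64-fold span, from 1.04 to 10.3 FPKM under anti-PD-1 and from 5.74 to 29.8 FPKM in the combination. Gzmf ran from 7.07 to 39.1, 6.43 to 25.0 and 19.2 to 94.1 FPKM in the same order. The combination minus anti-PD-1 difference was 1.52 ± 0.52 for Gzmd, 1.52 ± 0.56 for Gzme and 1.47 ± 0.55 for Gzmf on the log2(FPKM + 1) scale, with limma adjusted p-values of 0.106, 0.119 and 0.121. Against vehicle the combination differed by 0.43, 0.65 and 1.00 and anti-PD-1 by -1.09, -0.87 and -0.47 for Gzmd, Gzme and Gzmf, and none passed.

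In counts, 3 of the 9 members rose and 0 fell in the combination against vehicle, where 16.6% of all tested genes were called higher and 23.9% lower. Against a background this broad, a count of 3 in 9 says nothing particular about the set. The values of the groups did not overlap for 3 members, beside 24% of all genes, and the same 3 had an unadjusted exact permutation p of at most 0.05, beside 44.1% of all genes. With median-ratio scaling between libraries 53.7% of the called genes were higher in this comparison, against 40.9% as deposited, and the same 3 members were called. The median difference of the members was 0.92, beside -0.05 for all genes. In anti-PD-1 against vehicle 0 of 9 were called by limma, beside 2.21% of genes called higher and 3.34% lower, and 3 members (Gzmc, Gzmk and Nkg7) had an unadjusted exact permutation p of at most 0.05, beside 32.2% of all genes. Nkg7 and Gzmk had groups that did not overlap, as did 13.7% of all genes. The median of the members was -0.07, beside 0.01 for all genes. In the combination against anti-PD-1 limma called 0 members, beside 0% of genes called higher and 0.0619% lower, and 5 members (Gzmd, Gzme, Gzmf, Gzmk and Nkg7) had an unadjusted exact permutation p of at most 0.05, beside 18.5% of all genes. No member had groups that did not overlap, beside 4.5% of all genes. The median of the members was 0.92, beside -0.05 for all genes. These comparisons share libraries, since the vehicle tumours serve 2 of them and each treated group serves 2, so their differences are not independent of each other. The labels do not say that tumours came from separate mice, so p-values measure the spread between these samples.

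**Figure D2:**
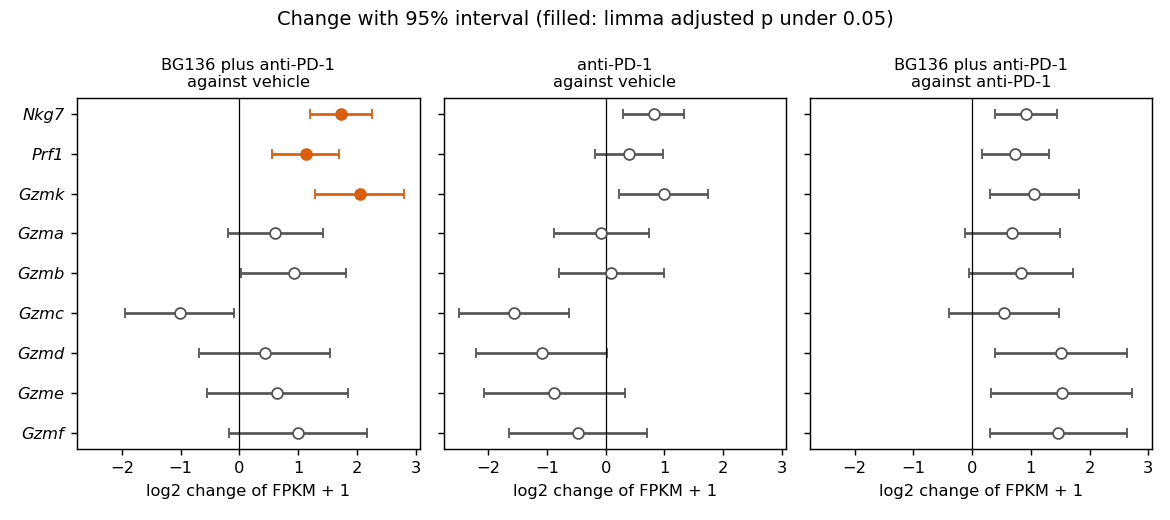
Difference of mean log2(FPKM + 1) (horizontal axis) with its 95% limma interval for the 9 genes in the 3 comparisons, with filled points where the adjusted p was under 0.05. Nkg7, Prf1 and Gzmk are the filled points, in the combination against vehicle, and Gzmc is the gene with intervals below 0 in both comparisons with vehicle.

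The granzymes were then set against Nkg7 and Prf1 within each library, as a log2 ratio of FPKM + 1. This asks whether the proteases moved in step with the release protein and with the pore protein. Over 15 ratios and 3 comparisons none of 45 differences passed after adjustment (lowest adjusted p = 0.0714, two-sided exact permutation tests), and an unadjusted exact p under 0.05 was found for 6 in the combination against vehicle, 6 in anti-PD-1 against vehicle and 0 between the treated groups. An exact test of 5 against 5 libraries cannot give less than 0.00794, so the adjustment over 45 leaves little room. Nkg7 and Prf1 themselves rose in the combination against vehicle, by 1.74 and 1.13, where the median of all genes was -0.05. Any gene that rose less than its reference therefore has a lower ratio. No share over all genes was computed for these ratios, so their counts stand without a background.

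The Gzmc ratios differed most. Gzmc relative to Nkg7 lay between 0.87 and 2.35 in vehicle tumours, so Gzmc exceeded Nkg7 in all 5, and between -1.48 and -0.16 in combination tumours, where Nkg7 exceeded Gzmc in all 5. Anti-PD-1 tumours ranged from -1.67 to 0.93. The mean difference was -2.75 ± 0.37 (SE) for the combination against vehicle (exact permutation p = 0.00794, adjusted 0.0714) and -2.38 ± 0.57 for anti-PD-1 against vehicle (exact permutation p = 0.0159, adjusted 0.119). Relative to Prf1 the same gene lay between 2.55 and 3.45 in vehicle, between -0.03 and 2.08 under anti-PD-1 and between 0.69 and 1.37 in the combination, so vehicle stood apart from both treated groups. The differences from vehicle were -2.15 ± 0.20 for the combination and -1.96 ± 0.42 for anti-PD-1 (both exact permutation p = 0.00794, adjusted 0.0714).

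Gzma relative to Nkg7 was lower in the combination than in vehicle by a difference of -1.12 ± 0.30, with no overlap (exact permutation p = 0.00794, adjusted 0.0714). Gzma itself was not lower there, with a difference of 0.61 beside 1.74 for Nkg7. Gzmb relative to Nkg7 differed by -0.81 ± 0.26 (exact permutation p = 0.0317, adjusted 0.159), but relative to Prf1 by -0.21 ± 0.19 (exact permutation p = 0.373). The ratio of Gzmb to Prf1 was 1.64 to 2.42 in vehicle, 0.85 to 1.99 under anti-PD-1 and 1.22 to 1.98 in the combination, and these ranges overlapped. Gzmk went the other way relative to Prf1, with a difference of 0.92 ± 0.32 and no overlap (exact permutation p = 0.00794, adjusted 0.0714), and differed from Nkg7 by 0.31 ± 0.23 (exact permutation p = 0.222). Both values depend on the 1 FPKM added before the logarithm, since 4 of 5 vehicle values of Gzmk lay below it. With 0.1 FPKM added they were 1.78 ± 0.45 relative to Prf1 (exact permutation p = 0.00794, adjusted 0.0794) and 1.22 ± 0.33 relative to Nkg7 (exact permutation p = 0.0159, adjusted 0.0794). Prf1 relative to Nkg7 differed by -0.60 ± 0.25 (exact permutation p = 0.0556).

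**Figure D3:**
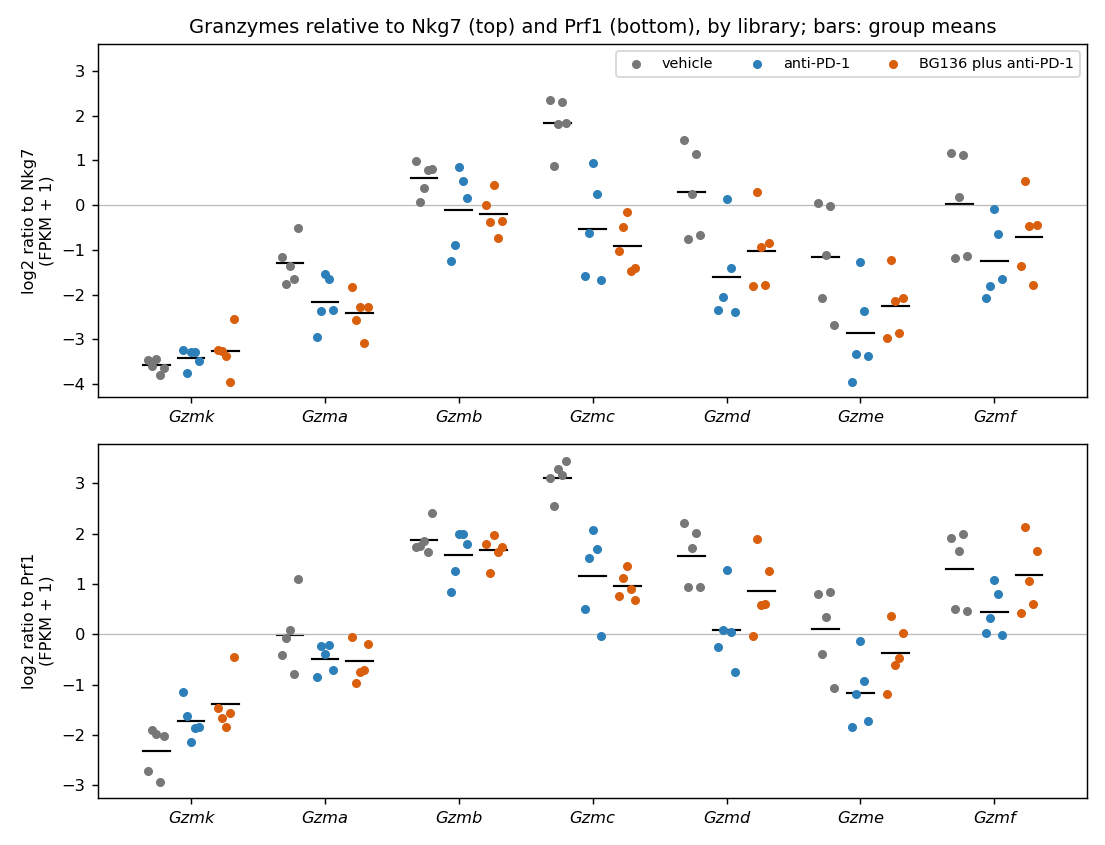
Log2 ratio of each granzyme to Nkg7 (top) and to Prf1 (bottom) in each library, from FPKM + 1, with group means as bars. The vehicle points of Gzmc lie above all combination points in both panels.

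With Gzmg, a cluster gene outside the 9, the tested granzymes formed a pool of 8 genes. The pool averaged 197.7 FPKM in vehicle (83.6 to 268.5), 114.8 FPKM under anti-PD-1 (42.0 to 194.0) and 249.4 FPKM in the combination (131.5 to 452.1), and these ranges overlapped. Gzmc held 38.6 ± 5.57% of the pool in vehicle (SD, n = 5), 23.6 ± 6.57% under anti-PD-1 and 15.7 ± 4.60% in the combination. The lowest vehicle share, 32.4%, lay above the highest anti-PD-1 share, 29.5%, and the highest combination share, 21.3%. Gzma, Gzmb and Gzmk together held 21.5 ± 7.98% in vehicle, 41.3 ± 10.7% under anti-PD-1 and 35.1 ± 12.3% in the combination, with overlap between all groups. Gzmk was a small part in every group, at 0.396% in vehicle, 2.67% under anti-PD-1 and 2.76% in the combination. Its highest vehicle share, 0.625%, lay below the lowest anti-PD-1 share, 0.926%, and the lowest combination share, 1.28%.

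**Figure D4:**
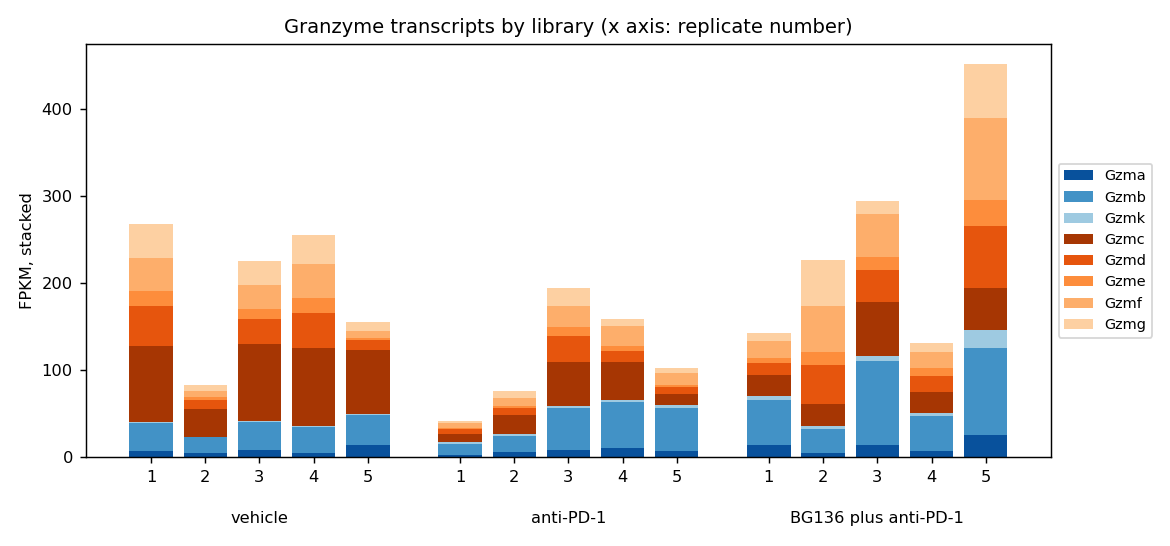
Stacked FPKM (vertical axis, from 0) of 8 granzymes in each of the 15 libraries, in blue for Gzma, Gzmb and Gzmk and in orange shades for the Gzmc to Gzmg cluster. Gzmc is the darkest orange and takes 32.4% or more of each vehicle bar and 21.3% or less of each combination bar.

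Apart from the treatment, tumours of 1 group differed in these genes, and the members fell into patterns when each group's mean was subtracted before correlating the 15 libraries. Of 36 pairs, Gzme and Gzmf had the highest Pearson r, 0.967 (Spearman rho 0.932), followed by Gzmd and Gzme at 0.965 (rho 0.936) and Gzmd and Gzmf at 0.956 (rho 0.939). Permutation p-values within groups were 2.00e-05 for these Pearson coefficients (adjusted 1.80e-04 over the 36 pairs), and r was 0.942 to 0.968 without the 2 libraries farthest from the median. Gzmc joined this set more loosely, at 0.733 to 0.758. Gzmb went with Prf1 (r = 0.894, rho 0.925, permutation p = 1.60e-04, adjusted 0.00115) and with Gzma (r = 0.835, rho 0.839, permutation p = 1e-05, the smallest that 100000 permutations can give, adjusted 1.80e-04). Nkg7 went with Gzmk (r = 0.874, rho 0.693, permutation p = 0.00144, adjusted 0.00741), but r was 0.603 without the 2 farthest libraries. Between Nkg7 and Gzmd, Gzme or Gzmf, r was only 0.10 to 0.19.

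**Figure D5:**
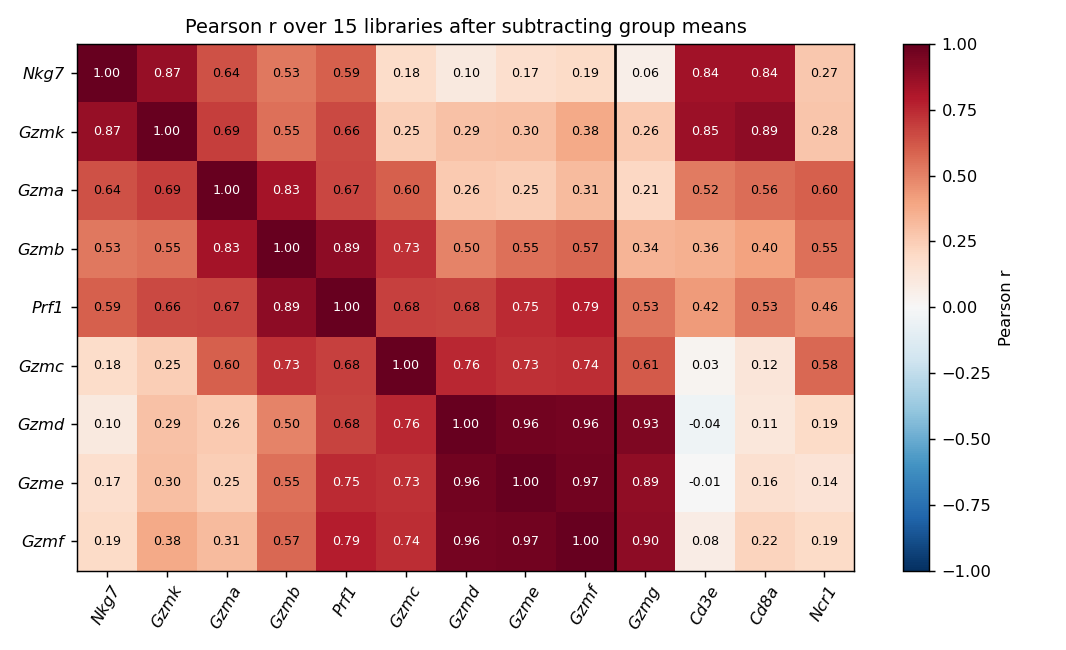
Pearson r over 15 libraries after subtracting group means, for the 9 genes against each other and, right of the line, against Gzmg, Cd3e, Cd8a and Ncr1. Gzmd, Gzme, Gzmf and Gzmg form a block at 0.89 to 0.97, and Nkg7 and Gzmk have r of 0.84 to 0.89 with Cd3e and Cd8a.

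The marker columns of the correlation plot also separate some of the members, as a description. With Cd8a, the CD8 coreceptor chain, centred r was 0.893 for Gzmk and 0.837 for Nkg7. It was 0.562 for Gzma, 0.526 for Prf1 and 0.402 for Gzmb, and 0.113 to 0.221 for Gzmc, Gzmd, Gzme and Gzmf. With Cd3e of the T cell receptor complex Gzma had r of 0.522, while Gzmc, Gzmd, Gzme and Gzmf had r between -0.04 and 0.08. With Ncr1, a natural killer cell receptor, r was 0.599 for Gzma, 0.577 for Gzmc, 0.554 for Gzmb and 0.464 for Prf1. It was 0.279 for Gzmk, 0.273 for Nkg7 and 0.140 to 0.190 for Gzmd, Gzme and Gzmf. Gzma thus had a similar r with Cd8a and with Ncr1. The genes of a library share its tumour block, so cell content and library effects enter every pair. These r with markers were not recomputed without the farthest libraries, and combination replicate 5 was the highest for Cd8a, at 31.99 FPKM.

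Among all other tested genes, the closest to Nkg7 by the same measure were Gimap1 (r = 0.954), Tspan4 (0.949), Themis (0.945), Cxcr6 (0.926) and Lmo2 (0.926). Themis acts in T cell receptor signalling and Cxcr6 is a chemokine receptor of tissue T cells. The closest to Gzmk were Cxcr6 (0.953), Abcb1a, Nbeal2, Ifit1bl1 and Dusp2. Those to Gzma began with the interferon-inducible Ifi203 (0.949) and Pydc3, and the third was Eomes (0.921), a T-box factor of cytotoxic lymphocytes, ahead of Trim30a and Trim30d. Gzmb was closest to Enpp4 (0.933), Tapbp, which loads peptide on MHC class I, Tor3a, Gm6637 and Trim30a. For Prf1 they were Cd200r4 (0.908), Cst7 (0.908), which encodes cystatin F, an inhibitor of the granzyme-activating cathepsins, then Pgap2, Scimp and Ctsz. Gzmc was closest to Ankrd40 (0.868), Emc10, Lrrc17, Uckl1 and Ift172. Gzmd, Gzme and Gzmf all had Gzmg first, at 0.935, 0.889 and 0.896. With 11311 genes and 15 libraries, high coefficients arise for many genes, so these lists carry no test. Only some of the listed genes are described here, and which cells held their RNA was not tested.

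Sequences are shown here because the cluster genes that moved together resemble each other. The 250 bases before the annotated start were read from RefSeq on GRCm38.p6, a build earlier than the GRCm39 of the submitters' notes, and each is printed 5′ to 3′ on the strand of its gene. All 9 members and Gzmg matched an entry. Capitals mark TGTGGT (the core bound by RUNX factors), TCACAC (the core bound by T-box factors) and TGANTCA (AP-1), searched on both strands, so that ACCACA and GTGTGA are also in capitals; no matches overlapped. Gzmd lies at chr14:56132594-56132843, Gzme at chr14:56120626-56120875, Gzmf at chr14:56211408-56211657, Gzmc at chr14:56234658-56234907 and Gzmb at chr14:56262335-56262584, all on the minus strand, with Gzmk at chr13:113180966-113181215 on the minus strand and Nkg7 at chr7:43436888-43437137 on the plus strand.
Gzmd: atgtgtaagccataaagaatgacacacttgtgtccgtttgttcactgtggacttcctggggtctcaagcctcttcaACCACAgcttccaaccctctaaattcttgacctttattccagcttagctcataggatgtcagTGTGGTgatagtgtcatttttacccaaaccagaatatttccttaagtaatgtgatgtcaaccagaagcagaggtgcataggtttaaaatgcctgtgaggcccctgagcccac
Gzme: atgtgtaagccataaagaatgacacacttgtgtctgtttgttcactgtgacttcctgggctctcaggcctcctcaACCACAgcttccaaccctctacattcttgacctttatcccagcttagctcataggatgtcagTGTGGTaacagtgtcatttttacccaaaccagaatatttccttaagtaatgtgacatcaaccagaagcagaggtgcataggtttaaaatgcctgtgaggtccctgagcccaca
Gzmf: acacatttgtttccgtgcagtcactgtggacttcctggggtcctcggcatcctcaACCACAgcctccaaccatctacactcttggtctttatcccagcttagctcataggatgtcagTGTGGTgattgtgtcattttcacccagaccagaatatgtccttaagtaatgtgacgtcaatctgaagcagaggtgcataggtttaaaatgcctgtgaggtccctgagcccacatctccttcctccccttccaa
Gzmc: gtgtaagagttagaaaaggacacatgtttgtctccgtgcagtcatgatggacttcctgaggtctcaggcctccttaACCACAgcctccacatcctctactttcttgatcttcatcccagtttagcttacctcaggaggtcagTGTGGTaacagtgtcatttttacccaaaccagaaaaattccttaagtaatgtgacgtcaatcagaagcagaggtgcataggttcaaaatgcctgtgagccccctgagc
Gzmb: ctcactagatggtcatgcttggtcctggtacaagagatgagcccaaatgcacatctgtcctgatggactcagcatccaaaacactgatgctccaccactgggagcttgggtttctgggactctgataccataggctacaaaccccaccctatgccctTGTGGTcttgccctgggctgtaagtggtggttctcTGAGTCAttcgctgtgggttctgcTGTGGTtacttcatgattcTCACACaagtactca
Gzmk: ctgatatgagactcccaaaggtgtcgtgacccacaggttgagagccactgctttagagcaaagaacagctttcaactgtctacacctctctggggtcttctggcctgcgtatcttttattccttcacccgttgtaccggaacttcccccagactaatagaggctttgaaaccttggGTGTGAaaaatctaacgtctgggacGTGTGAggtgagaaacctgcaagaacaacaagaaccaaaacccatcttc
Nkg7: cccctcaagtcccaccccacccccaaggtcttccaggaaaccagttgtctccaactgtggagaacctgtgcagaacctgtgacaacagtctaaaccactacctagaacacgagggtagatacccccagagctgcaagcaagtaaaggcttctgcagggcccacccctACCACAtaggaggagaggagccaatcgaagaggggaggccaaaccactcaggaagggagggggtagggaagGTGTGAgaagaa
The Gzmd and Gzme stretches are 94.8% identical, Gzmd and Gzmf 74.5% and Gzmc and Gzmd 80.5%, while Gzmb is 43.8% to 48.0% identical to Gzmc, Gzmd, Gzme, Gzmf and Gzmg, near the 48.0% of the unrelated pair Gzmd and Nkg7. Gzmc, Gzmd, Gzme, Gzmf and Gzmg each hold 2 matches to TGTGGT, a motif found in 14.0% of 32851 promoters of the same length. Gzmb holds 2 of them with 1 TCACAC and 1 TGANTCA, Gzmk 2 TCACAC, and Nkg7 1 TGTGGT and 1 TCACAC. Of all promoters 12.3% hold TCACAC and 6.75% hold TGANTCA. These are matches of letters and not measured binding.

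The transcripts are alike too, which bears on how reads are assigned. Gzmd and Gzme are 90.0% identical along the transcript, Gzme and Gzmg 88.1%, Gzmf and Gzmg 87.5% and Gzmd and Gzmf 82.9%, whereas Gzmc is 68.6% to 70.3% identical to those 4. Of all 50-base windows, 21.5% in Gzmd, 19.1% in Gzme, 15.2% in Gzmg, 7.36% in Gzmf and 4.14% in Gzmc occur also in another of these genes, and 0% in Gzma, Gzmb, Gzmk, Prf1 and Nkg7. At 100 bases the share was 0.231% in Gzmd, 0.247% in Gzmg and 0% in the others. The read length is not given in the sources used here, so the split of FPKM among Gzmd, Gzme, Gzmf and Gzmg is uncertain, and its part in their shared pattern was not tested.

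In the combination against vehicle all 8 T cell markers and both CD8 markers rose, with median differences of 1.31 and 1.54 on the log2(FPKM + 1) scale. Of all tested genes 16.6% were called higher there. The summed FPKM of the 8 T cell markers was 13.4 to 29.9 in vehicle, 29.0 to 44.4 under anti-PD-1 and 40.3 to 150 in the combination. Cd8a averaged 4.90 ± 0.853, 9.31 ± 1.12 and 16.7 ± 8.90 FPKM in the same order (SD, n = 5). In anti-PD-1 against vehicle 1 of 8 T cell markers (Cd3g) and 1 of 2 CD8 markers (Cd8a) rose, and 0 did in the combination against anti-PD-1. Limma called 2.21% of all tested genes higher in the former comparison and 0% in the latter. Of 8 natural killer cell markers only Ncr1 and Klrg1 were abundant enough to test, and neither passed in any comparison. Their list summed to 4.07 to 7.45 FPKM in vehicle, 2.96 to 4.10 under anti-PD-1 and 3.21 to 9.79 in the combination, and Ncr1 averaged 1.41, 0.609 and 0.964 FPKM. The γδ T cell markers that were matched, 2 of 5, stayed below the filter. In bulk tumour RNA, more cells of a type and more RNA per cell cannot be told apart.

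Set against the mean of the 3 CD3 chains in the same library, Nkg7 differed between the combination and vehicle by 0.25 ± 0.13 (exact permutation p = 0.0794) and Prf1 by -0.35 ± 0.28 (exact permutation p = 0.294). Gzmk differed by 0.57 ± 0.23 (exact permutation p = 0.0317) and Gzmc by -2.50 ± 0.39, with no overlap (exact permutation p = 0.00794). With 0.1 FPKM added in place of 1, Gzmk differed by 1.30 ± 0.34 (exact permutation p = 0.00794, adjusted 0.107) and Nkg7 by 0.080 ± 0.16 (exact permutation p = 0.619). None of the 27 such differences passed after adjustment, where the lowest adjusted p was 0.214, and an unadjusted exact p under 0.05 was found for 3 in the combination against vehicle, 2 in anti-PD-1 against vehicle and 0 between the treated groups. The CD3 chains themselves rose in the combination against vehicle, and no share over all genes was computed for these differences.

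Other granule-bearing and infiltrating cells were measured as well. Their counts in the combination against vehicle stand beside 16.6% of all tested genes called higher and 23.9% called lower. All 6 tested mast cell markers rose in the combination against vehicle, with Cma1 going from 3.95 ± 2.14 to 16.8 ± 5.09 FPKM, and so did 5 of 6 macrophage and 3 of 4 neutrophil markers. The 8 matched mast cell markers summed to 8.88 to 34.1 FPKM in vehicle, 17.1 to 63.7 under anti-PD-1 and 50.03 to 118 in the combination. The macrophage markers summed to 992 to 1268, 1407 to 1704 and 1438 to 3425 FPKM in the same order. Among the remaining marker lists, the 1 tested CD4 marker (Cd4) and the 1 tested B cell marker (Cd79b) rose, as did 1 of 5 epithelial markers (Krt18). Of 5 fibroblast markers 2 rose and 2 fell, and 0 of 2 plasmacytoid dendritic cell, 0 of 4 adipocyte and 0 of 5 skeletal muscle markers passed. The part of these cells in the granule gene differences was not tested. Combination replicate 5 held the highest of all 15 values for 8 of the 9 members, and in it Cd8a and Cd3e also reached 31.99 and 29.8 FPKM. The 3 calls held without that library.

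The rest of the granule pathway was read from lists of its parts, whose counts in the combination against vehicle stand beside the 16.6% of all tested genes called higher and the 23.9% called lower. These shares were 2.21% and 3.34% in anti-PD-1 against vehicle, and 0% and 0.0619% in the combination against anti-PD-1. Of 12 genes for granule storage, granzyme activation and inhibition, 8 rose and 1 fell in the combination against vehicle (median 0.54), and 0 changed in the other comparisons. Srgn, the proteoglycan core that packs granzymes, rose by 0.96 ± 0.17 (limma adjusted p = 7.28e-04). Ctsc, the peptidase that activates progranzymes, rose by 1.08 ± 0.22 (limma adjusted p = 0.00190), the protease Ctsl by 0.52 ± 0.08 and the serpin Serpinb6b by 0.90 ± 0.17. Ctsc and Ctsl are also lysosomal genes of macrophages, and which cells held the RNA of this list was not tested.

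Of 11 tested genes for granule transport and exocytosis, 5 rose and 1 fell in the combination against vehicle (median 0.22). Unc13d, which primes granules for fusion, rose by 0.81 ± 0.18 (limma adjusted p = 0.00284) and its partner in fusion Stxbp2 by 0.94 ± 0.20 (limma adjusted p = 0.00237). The actin regulator Coro1a rose by 0.94 ± 0.19, and Arl8b, which moves lysosomes along microtubules, had a difference of -0.21 ± 0.04 and was the one that fell. Arl8b also fell in anti-PD-1 against vehicle, with a difference of -0.16 ± 0.04 (limma adjusted p = 0.0356), the sole change of the list there. In the combination against vehicle 5 of 6 macrophage markers rose too, and which cells held the RNA of the transport genes was not tested.

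Of 9 tested death ligands and targets of killing, 2 rose and 3 fell (median -0.01, beside -0.05 for all genes), which is near those shares and says nothing particular about the list. Fasl, the ligand of the granule-independent route, rose by 0.96 ± 0.22 (limma adjusted p = 0.00352). The initiator caspase Casp8 fell, with a difference of -0.33 ± 0.05 (limma adjusted p = 2.39e-04), and so did Parp1, a caspase substrate, with one of -0.19 ± 0.06 (limma adjusted p = 0.0244). Casp8 fell in anti-PD-1 against vehicle too, with a difference of -0.22 ± 0.05 (limma adjusted p = 0.0205). Casp8 and Parp1 are expressed in most cell types, tumour cells included.

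Of 12 transcription factors of cytotoxic lymphocytes 7 rose and 2 fell in the combination against vehicle (median 0.55), and 0 changed in the other comparisons. Id2 rose by 0.95 ± 0.20, Stat4, which relays interleukin-12, by 0.85 ± 0.15 and Batf, an AP-1 family factor, by 1.02 ± 0.19. Tcf7, a factor of naive and stem-like T cells, fell with a difference of -0.45 ± 0.08 (limma adjusted p = 9.06e-04). It averaged 8.94 FPKM in vehicle and 6.30 FPKM in the combination, where Cd3e averaged 4.47 and 14.4 FPKM. Which cells of the tumour block held the Id2 and Tcf7 RNA was not tested.

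Of the 3 granzymes outside the 9, Gzmg behaved like its neighbours: its values were 7.35 to 40.1 FPKM in vehicle, 2.30 to 19.7 under anti-PD-1 and 8.58 to 62.4 in the combination, and it passed in no comparison. Gzmm reached at most 0.438 FPKM, and Gzmn was listed at 0 in every library.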

How the data were processed

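Bulk polyadenylated RNA of 15 tumour blocks was sequenced from stranded libraries, per the labels' protocols. The deposited values are 1 column per library under a header that says only expression. They were read as FPKM computed by the authors, a unit inferred from the values and from Cufflinks among the tools, so the depth is unknown. The submitters' processing notes name Trimmomatic, HISAT2, Cufflinks, HTSeq and DESeq and the build GRCm39, and give no version or role for any tool. Of 21878 entries, 27 symbols turned into dates were left out (at most 0.168% of a library's sum).

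The 11311 genes that reached 1 FPKM in 5 or more libraries entered the test as log2(FPKM + 1). The fit used limma (version 3.58.1, R version 4.3.3) with 3 group means over all 15 libraries and a trended empirical Bayes variance. Tests were two-sided with Benjamini-Hochberg adjustment per comparison at 0.05. Ratios within a library were compared by exact permutation tests, and group-centred correlations by 100000 permutations within groups. The limma fit and the search for correlated genes were tested on simulated data. Named genes were the 9 members, the 5 most correlated tested genes of each, and up to 4 genes of smallest p per pathway list, of which 1 is not reported here. The members and lists were chosen with earlier results of these data known. Replicate numbers pair no tumours. Library names carry prefixes that differ within the vehicle and combination groups, whose meaning is not given in the sources used here; they were not used as batches, but vehicle 1 and combination 1, whose prefixes stand alone in their groups, were left out together as an alternative. The other alternatives were the pseudocount, the scaling, the filter, the fit and each library left out.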

Additional observations from a re-analysis of the deposited data

Results flagged for a closer look

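In groups of 5 libraries, a lowest or highest value was looked at again where its gap to the nearest other value took more than 0.710 of the group's range. This was so in 4 of 72 groups of member values and ratios, and chance flags about 1 in 20. Gzmb measured 18.4 FPKM in vehicle replicate 2, with the other vehicle tumours at 30.5 to 35.2 FPKM. Gzmk measured 21.2 FPKM in combination replicate 5, with the other combination tumours at 2.90 to 5.89 FPKM. The log2 ratio of Gzmk to Prf1 in the same library was -0.45, with the others at -1.84 to -1.46. The log2 ratio of Gzmb to Prf1 in vehicle replicate 5 was 2.42, with the others at 1.64 to 1.85, and Gzma was also highest of its group in that library, at 13.6 FPKM.

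Vehicle replicate 2 held the lowest vehicle value of 6 of the 9 members and anti-PD-1 replicate 1 the lowest anti-PD-1 value of 7, so the low tumours were low in most granule genes at once.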

How the results depend on the processing

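Nkg7, Prf1 and Gzmk stayed past the threshold in the combination against vehicle in all 26 limma alternatives, with log2 differences of 1.37 to 1.94, 0.73 to 1.27 and 1.48 to 3.01. The count of members called there was 3 or 4 in every setting, leaving out any 1 library included, where Gzmb or Gzmc made the fourth. In anti-PD-1 against vehicle the count of 0 became 1 with a pseudocount of 0.1 FPKM (Gzmk) or quantile normalization (Gzmc). It became 3 (Gzmc, Gzmk and Nkg7) with only the compared groups, with weights by group, without combination replicates 3 and 5, and by unadjusted exact tests, and 0 to 3 without 1 library. Weights by group and the compared groups alone also raised the calls over all genes there, from 250 higher and 378 lower to 1135 and 1134 and to 1138 and 962; without combination replicates 3 and 5 they were 977 and 816. In the combination against anti-PD-1 the count of 0 became 5 by unadjusted exact tests and 0 to 3 without 1 library; without combination replicate 2, which gave the 3, limma called 941 genes higher and 1283 lower in place of 0 and 7. For the other settings that moved a count the cause was not tested.

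With the replicate number as a block, 4, 0 and 0 members were called in the 3 comparisons, Gzmb being added in the first, and calls over all genes in anti-PD-1 against vehicle were 133 and 214. Same-numbered libraries did not deviate together (correlations -0.388 to 0.293). For the ratios no block result is given, because a paired exact test of 5 cannot give less than 0.0625. The count of ratios to Nkg7 or Prf1 that passed was 0 to 4 without 1 library in both comparisons with vehicle, with 4 reached without anti-PD-1 replicate 3 and the cause not tested.

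Values that changed sign were all small and not called. Gzmd in the combination against vehicle was -0.017 without combination replicates 3 and 5. Without vehicle replicate 1 and combination replicate 1, Gzmf was 0.21 relative to Prf1 and 0.060 relative to the CD3 chains in that comparison. Nkg7 relative to the CD3 chains was -0.0180 in anti-PD-1 against vehicle at a pseudocount of 0.1 FPKM. Without 1 library, Gzmf relative to Prf1 ran from -0.371 to 0.0552 in the combination against vehicle, and in anti-PD-1 against vehicle Gzma ran from -0.22 to 0.16 and Gzmb from -0.0934 to 0.414. The remaining alternatives kept the direction: 666 of 702 values of single members stayed on the same side of the threshold, 29 moved past it and 7 changed sign. No scaling moved the median of all genes by more than 0.1. With 5 libraries a group and no read counts, Gzmk in vehicle, at under 1 FPKM in 4 tumours, is the value that low expression limits most.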
